A study of Mus musculus with 4 samples.

Results

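The MYC, MAX and MXD network is the set of 10 mouse genes Myc, Mycn, Mycl, Max, Mxd1, Mxd3, Mxd4, Mxi1, Mnt and Mga, chosen by name as the MYC family, their shared partner and the factors that compete for it. All 10 have an entry among the 34866 genes of the expression table. The 4 RNA-seq libraries come from the spleens of 2 mice, each with an IgM+ tumor that contained Tom+ cells (tumors #1 and #2), and each spleen gave 1 library of sorted B220+ IgM+ Tom- cells and 1 of B220+ IgM+ Tom+ cells. Both mice were λ-MYC Tom+/ki, carrying λ-MYC+/TG, R26tdTom+/ki and a Cre knock-in allele, so that every library carries the MYC transgene, the Cre allele and the reporter. The λ-MYC transgene is a human MYC gene under immunoglobulin λ regulatory sequences and is active in B-lineage cells. Cre switches on the red protein Tom in the cells that express it and in their progeny, so Tom marks B cells with present or past Cre activity. Ages of the 2 mice are not given in the sources used here, and each tumor is 1 animal.

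MYC proteins bind DNA only as a pair with MAX, and such pairs switch on genes for ribosome production, nucleotide synthesis and cell growth. The MXD proteins (MXD1, MXD3, MXD4 and MXI1), MNT and MGA also pair with MAX, occupy the same E-box sequences, and recruit repressors to them. MYC is the driver oncogene of Burkitt lymphoma, where a translocation places it under immunoglobulin control.

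The E-box CACGTG is the site that all of these pairs recognise, so the promoters of the network's own genes were searched for it. RefSeq windows of 300 bases (GRCm38.p6, 250 before to 50 after the start) were given for 9 of the 10 genes, Myc being the one without, in 11 windows because Mxi1 has 3. CACGTG reads the same on both strands and was counted once. It occurred in 3 of the 11 windows, those of Mxd4, Mnt and Max, and in 2349 of 32851 windows of all genes (7.15%). The 3 stretches are printed on the gene's own strand, 5′ to 3′, with the E-box in capitals. Each ends before the more upstream of the RefSeq and GENCODE M21 starts, except that of Max, which runs past the RefSeq start to the end of its E-box. They lie at chr5:34187721-34187960 (minus strand) for Mxd4, chr11:74830674-74830919 (plus strand) for Mnt and chr12:76962246-76962498 (minus strand) for Max.
Mxd4: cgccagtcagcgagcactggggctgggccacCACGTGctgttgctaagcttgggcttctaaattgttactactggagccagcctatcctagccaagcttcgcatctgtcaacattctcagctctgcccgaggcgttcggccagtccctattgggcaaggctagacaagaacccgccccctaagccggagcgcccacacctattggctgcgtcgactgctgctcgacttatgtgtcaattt
Mnt: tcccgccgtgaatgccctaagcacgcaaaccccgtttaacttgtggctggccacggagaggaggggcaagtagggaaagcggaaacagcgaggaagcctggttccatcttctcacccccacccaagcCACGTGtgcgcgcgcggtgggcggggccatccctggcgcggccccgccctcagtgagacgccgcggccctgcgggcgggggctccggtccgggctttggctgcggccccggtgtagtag
Max: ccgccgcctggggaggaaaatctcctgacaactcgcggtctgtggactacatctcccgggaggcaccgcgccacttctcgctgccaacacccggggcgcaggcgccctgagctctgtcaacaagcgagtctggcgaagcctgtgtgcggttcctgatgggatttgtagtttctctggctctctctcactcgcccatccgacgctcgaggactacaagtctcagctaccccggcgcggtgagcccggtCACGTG
The first base of the E-box lies at position -219 from the RefSeq start in Mxd4, at -123 in Mnt and at -3 in Max. A match describes these letters, and binding was not measured.

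Each library was summarised as TPM, the share of transcripts a gene contributes after scaling for transcript length, given per 1000000, so the read depth is unknown and counting error cannot be given. Tests used log2(TPM + 1), which understates the change of weakly expressed genes, on the 11339 genes that reached 1 TPM in 2 or more libraries. The median gene tested had a mean of 12.0 TPM. B cell markers were all detected, with a summed level of 2346 to 6074 TPM, against 1.72 to 10.5 for T cells (Trbc1 and Trbc2 at 0 in every library, Cd3e at most 0.069, Cd3d up to 7.77), 0.193 to 0.978 for natural killer cells (Ncr1 at 0 in every library), 2.64 to 13.5 for myeloid cells and 0.804 to 21.5 for erythroid cells. Plasma cell markers summed to 132 to 344 TPM. Within that sum Mzb1 had 80.6 to 145 TPM. Jchain was at 209 in Tom+ cells of tumor #2 and at most 1.72 in the other libraries. Prdm1 reached at most 0.570 TPM in any library, Tnfrsf17 0.778 and Sdc1 1.95. The highest values of Derl3, Xbp1 and Irf4 were 5.39, 21.2 and 29.4 TPM. In sorted populations such as these, fewer cells of a kind and less RNA per cell cannot be told apart.

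Myc itself (ENSMUSG00000022346, chr15:61985391-61990374 on GRCm38), as listed for the mouse gene, was well detected and nearly even across the libraries. Its level was 38.1 TPM in Tom- and 39.3 in Tom+ cells of tumor #1, and 44.9 and 45.6 in those of tumor #2. Myc stood at percentile 78.8 of the genes tested. The table holds only mouse gene identifiers, with 0 of another kind, so the human transgene has no level of its own here, and how many of the Myc reads came from it was not tested. Mycn (chr12:12936093-12941914) and Mycl (chr4:122995652-123002485), relatives first known from neuroblastoma and lung cancer, were listed at 0 in all 4 libraries.

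Max (chr12:76937269-76962201), the obligate partner, was the most abundant member by far. In tumor #1 it reached 246 TPM in Tom- cells and 200.5 in Tom+ cells, and in tumor #2 the values were 232 and 192, at percentile 95.3. In TPM, Max exceeded Myc by a ratio of 6.47, 5.10, 5.17 and 4.21 in the same order of libraries, and it exceeded the sum of all its listed partners by a ratio of 2.80, 2.40, 1.53 and 1.35. Every library therefore held more Max than mouse Myc family and MXD-type transcripts together, on the TPM scale. The human MYC transgene has no level of its own here, so the ratios to total MYC are unknown.

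Among the competitors, Mga (chr2:119897228-119969581), the large protein that also carries a T-box domain, had 18.5 TPM in Tom- cells and 20.9 in Tom+ cells of tumor #1, with 23.7 and 32.2 in tumor #2. Mxi1 (chr19:53310518-53375810) had 8.86, 8.63, 6.16 and 8.82 TPM in that order. Mnt (chr11:74830920-74845725), the MXD-like factor found in most cell types, had 7.59, 4.19, 6.57 and 6.81 TPM. Tom+ cells of tumor #1 were the low library for Mnt and Tom- cells of tumor #2 for Mxi1. Mxd1 (chr6:86647042-86669161), which rises when blood cells differentiate, was low at 2.23, 2.06, 1.54 and 1.65 TPM. Mxd3 (chr13:55325168-55329823), the member linked to the S phase of dividing cells, was low as well, at 2.55, 1.25, 1.61 and 0.614 TPM. Mxd4 (ENSMUSG00000037235, chr5:34173883-34187720) stood apart from the rest, with 10.2 TPM (Tom-) and 7.33 (Tom+) in tumor #1 but 67.1 and 46.4 in tumor #2. Its highest library exceeded its lowest 9.16-fold.

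**Figure D1:**
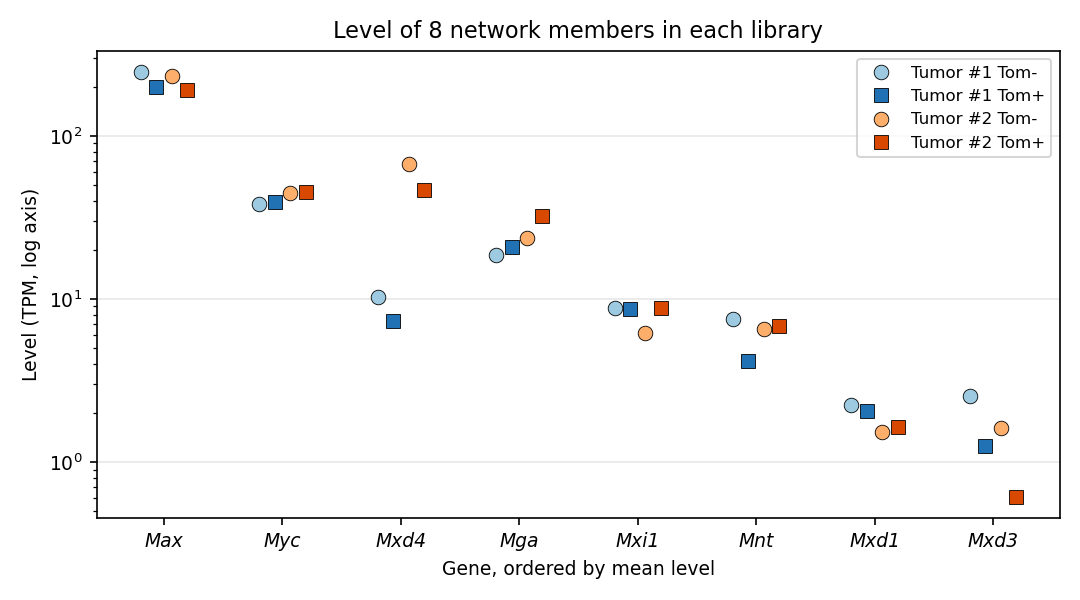
TPM on a log axis of the 8 genes that were not at 0, ordered by mean level, in each of the 4 libraries (circles Tom-, squares Tom+; blue tumor #1, orange tumor #2). Max lies at 192 to 246 and Myc at 38.1 to 45.6, and Mxd4 has the widest gap between the tumors, at 7.33 and 10.2 against 46.4 and 67.1.

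In order of level, Max lay above Myc, and Myc above Mga, with no overlap of their ranges over the 4 libraries. The range of Mxd4 overlapped those of Myc, Mga, Mxi1 and Mnt, so its place in the order differed between the tumors. Mxi1 and Mnt could not be ordered beyond their spread, nor could Mxd1 and Mxd3.

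The first comparison asks how Tom+ cells differ from the Tom- cells of the same spleen. Tom+ cells had lower Max in both tumors, by -0.30 and -0.27 on the log2 scale, and the Tom+ and Tom- libraries did not overlap. The mean difference was -0.28 (SE 0.12, n = 2 pairs), with an adjusted p of 0.936 from limma with the tumor as a block. Mxd3 was lower as well, by -0.66 and -0.69, without overlap (mean -0.67, SE 0.23, adjusted p 0.936 from limma), at levels of 0.614 to 2.55 TPM. Mxd4 was lower by -0.43 and -0.52 within the tumors (mean -0.48, SE 0.16, adjusted p 0.936 from limma), although its Tom+ and Tom- groups overlapped, the tumors lying far apart. Unadjusted p-values from limma were 0.0889 for Max, 0.0582 for Mxd3 and 0.0519 for Mxd4.

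Myc differed between Tom+ and Tom- cells by 0.05 in tumor #1 and 0.02 in tumor #2 (mean 0.03, SE 0.14, adjusted p 0.989 from limma). Mga was higher in Tom+ cells by 0.17 and 0.43 (mean 0.30, SE 0.17, adjusted p 0.936 from limma). Mxd1, Mxi1 and Mnt, 3 of the 8, had differences of opposite sign in the 2 tumors (47.3% of all genes did), for Mnt -0.73 and 0.04. Of the 8 members tested, 0 passed an adjusted p of 0.05 and 0 had an unadjusted p below 0.05, against 0.0% and 4.67% of all genes tested (0 and 530). In direction, 5 of the 8 kept the same sign in both tumors (51.2% of all genes did), 3 of them lower (29.5%) and 2 higher (21.6%) in Tom+ cells. The groups did not overlap for 2 members, both lower in Tom+ cells (9.86% of all genes), and 0 were higher without overlap (6.42%). The median difference was -0.15 over the 8 members and -0.03 over all genes tested, and the median SE over all genes tested was 0.22. For Max, Mxd3 and Mxd4 the differences in the 2 tumors lay close together (SD 0.017, 0.027 and 0.065, n = 2), but none passed the adjusted threshold. With 1 residual degree of freedom, the p-values measure only the spread of these 4 libraries.

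**Figure D2:**
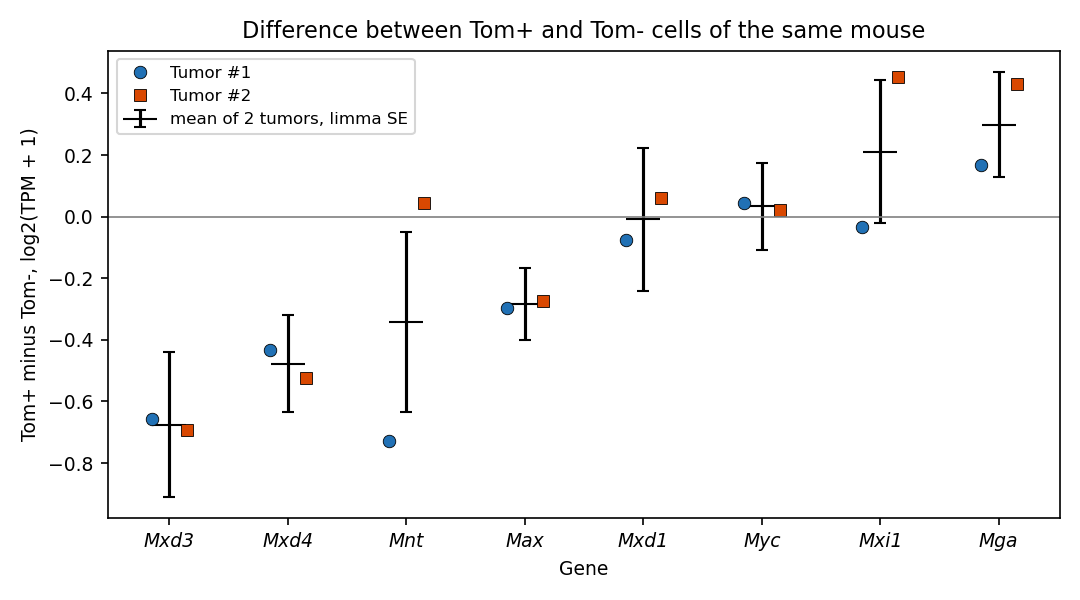
Difference of Tom+ minus Tom- cells in log2(TPM + 1) for the 8 members tested, with a point for each tumor and the limma mean with its SE. Max, Mxd3 and Mxd4 lie below 0 in both tumors, Myc lies at 0.05 and 0.02, and Mxd1, Mxi1 and Mnt have points on both sides of 0.

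The second comparison sets the 2 tumors beside each other. Here a mouse is 1 sample, so it compares 2 animals and has no test of tumors in general, and a gene was counted as different when both libraries of one tumor lay above both of the other and the mean difference was at least 1 on the log2 scale. Mxd4 was the only member to meet this, and 21.3% of all genes tested did (16.2% higher in tumor #2, 5.1% lower). Its level in tumor #2 was 6.56 times that in tumor #1 in Tom- cells and 6.33 times in Tom+ cells. The mean log2 difference was 2.55, at percentile 97.2 of all genes, and in limma's tumor term, which uses the spread between Tom+ and Tom- cells of these 2 mice, it had an SE of 0.16 and an adjusted p of 0.0444. That term called 4.33% of all genes. A share of 5.01% of the 60-base stretches in Mxd4 transcripts also occurs in transcripts of other genes, so reads of that share could be split between them.

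The other members differed less between the tumors. Mga was 0.47 higher and Myc 0.22 higher in tumor #2 on the log2 scale, and Mxd1 was -0.28, each with no overlap between the tumors. For Mxd3 (-0.46), Mxi1 (-0.22), Mnt (0.20) and Max (-0.08) the libraries of the tumors overlapped. Without overlap, 3 members were higher in tumor #2 and 1 was lower, against 44.8% and 23.7% of all genes. The median gene was itself 0.20 higher in tumor #2. Against that median, Mxd4 was 2.35 higher, Mga 0.27 higher, Myc 0.02 higher and Mnt 0.00. Below it lay Max at -0.28, Mxi1 at -0.42, Mxd1 at -0.48 and Mxd3 at -0.67. With quantile normalization Max lay 0.05 above the median gene. With trimmed-mean scaling the median gene moved to -0.10 and Myc to -0.12, and Mnt turned to -0.09, so the direction of Myc and Mnt depends on the scaling. With trimmed-mean scaling the genes called higher and lower in tumor #2 numbered 1267 and 1073, and with quantile normalization 1116 and 1011, against 1835 and 578 with the deposited values. Mxd4 stayed between 2.23 and 2.67 under every scaling, filter and pseudocount tried. Other values move with the tumors too: B cell markers summed to 2511 and 2346 TPM in tumor #1 and 5235 and 6074 in tumor #2, erythroid markers to 21.5 and 17.6 against 0.804 and 1.14, and the 8 proliferation genes to 1470 and 1541 against 809 and 744. Mitochondrial genes took 6.61% and 8.67% of the TPM in tumor #1 and 14.4% and 15.6% in tumor #2, and pseudogenes 31.3% and 30.3% against 25.4% and 23.4%. Their part in the difference of Mxd4 was not tested.

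**Figure D3:**
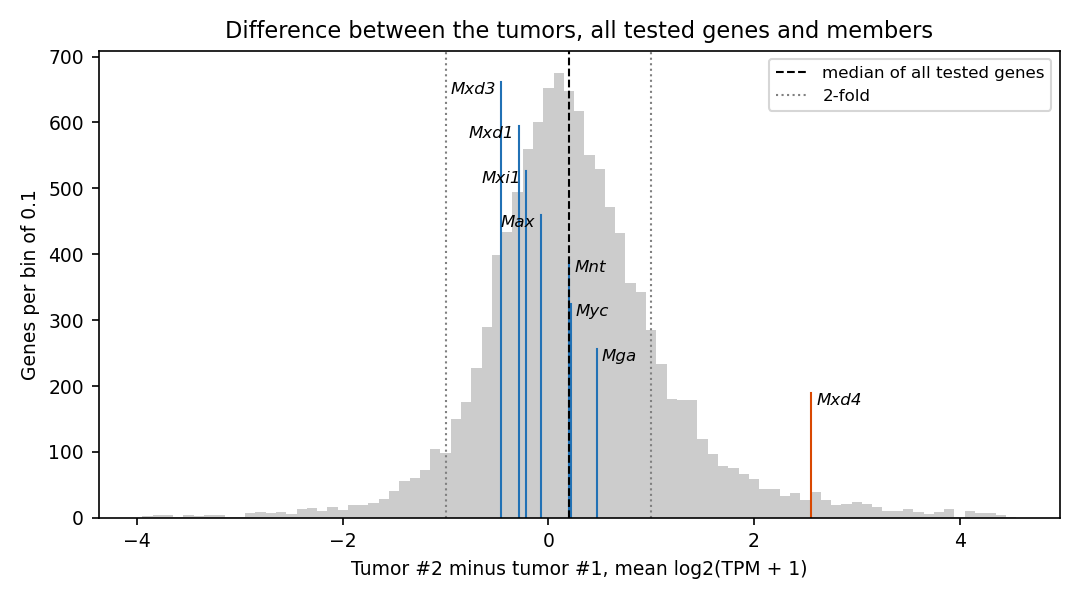
Distribution of the log2 difference of tumor #2 minus tumor #1 over the 11339 genes tested (grey, genes per bin), with a line at the value of each of the 8 members, whose height has no meaning, a dashed line at the median gene and dotted lines at a 2-fold difference. Mxd4 lies at 2.55, in the right tail, and the other members lie between -0.46 and 0.47, on both sides of the median gene at 0.20.

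Protein-coding genes within 500 kb of Mxd4 were set beside it. Of 14 such genes tested, 4 met the same criterion for a difference between tumors, all higher in tumor #2, where 21.3% of all genes met it and 16.2% were higher. These 4 were named after their values were seen. Sh3bp2 had 5.48 and 18.5 TPM in tumor #1 and 41.8 and 48.1 in tumor #2 (2.03 on the log2 scale). Poln (1.78), Grk4 (1.74) and Nop14 (1.08) were the others. The median of the 14 was 0.59, with a range of -0.78 to 2.03, and 0 of them exceeded Mxd4. For Myc, no gene within 500 kb was tested, and the neighboring transcript Pvt1 had no entry under that name.

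To describe the composition of the network, the TPM of Mxd1, Mxd3, Mxd4, Mxi1, Mnt and Mga were summed as the MXD side and those of Myc, Mycn and Mycl as the MYC side. The MYC side holds mouse genes only. The human MYC transgene that every library carries has no level of its own, so the balance to total MYC is unknown. The MXD side held 49.96 TPM in Tom- and 44.4 in Tom+ cells of tumor #1, and 107 and 96.5 in those of tumor #2. Its ratio to the MYC side was 1.31 and 1.13 in tumor #1, and 2.38 and 2.12 in tumor #2. Both libraries of tumor #2 thus lay above both of tumor #1. On the log2 scale the difference between tumors was 0.86 in Tom- and 0.91 in Tom+ cells of the same 2 mice (mean 0.88), with no replication of either tumor. With the mean log2 value of each side in place of the sums, it was 0.31, where Mycn and Mycl at 0 count in the mean of the MYC side. Tom+ cells lay -0.22 and -0.17 from Tom- cells (-0.19 ± 0.036, SD, n = 2), a direction that did not hold without Mxd4, where the values were -0.15 and 0.32 (mean 0.085). With Mga left out the mean was -0.43.

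Mxd4 was also left out of the MXD side, a choice made after its difference between the tumors was seen. That the tumors then no longer separated follows from this choice and is not a finding of its own. Mxd4 made up 20.5% and 16.5% of the MXD side in tumor #1 and 62.9% and 48.1% in tumor #2. With Mxd4 left out, the MXD side held 39.7, 37.0, 39.6 and 50.1 TPM, and its ratio to the MYC side was 1.04, 0.941, 0.882 and 1.10. The log2 difference between the tumors then was -0.24 in Tom- and 0.22 in Tom+ cells. Relative to mouse Myc alone, Mxd4 stood at 0.269 and 0.186 in tumor #1 and at 1.495 and 1.02 in tumor #2. Its TPM thus equalled or exceeded the value listed for mouse Myc in both libraries of tumor #2, with transgenic MYC not counted apart. Max made up 73.7% and 70.5% of the summed TPM of the 10 genes in tumor #1 and 60.5% and 57.4% in tumor #2, while Myc made up 11.4%, 13.8%, 11.7% and 13.7%. TPM counts transcripts and says nothing of protein.

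**Figure D4:**
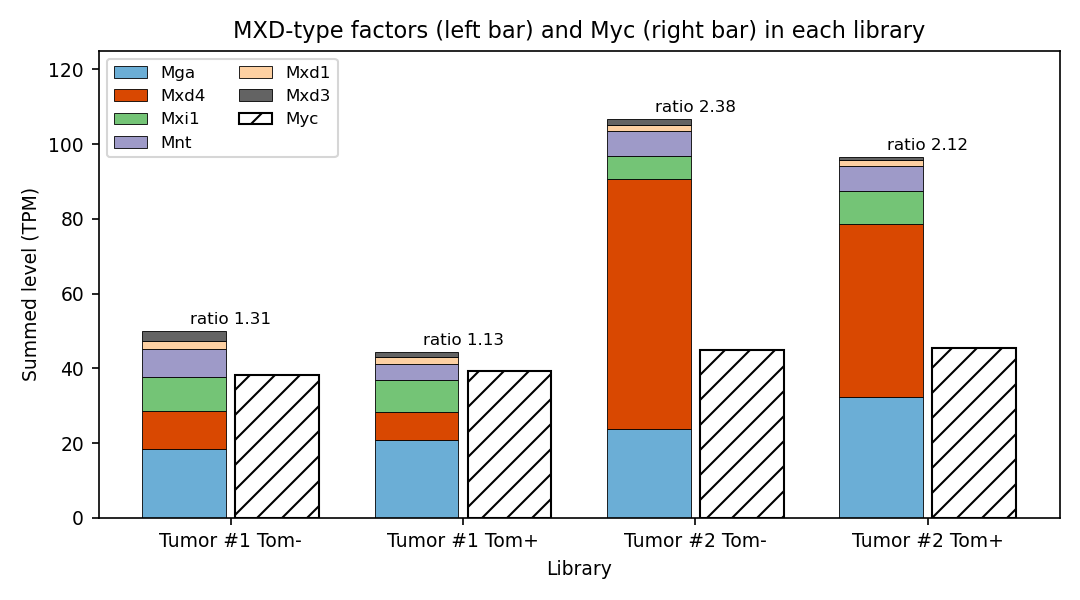
Summed TPM of the MXD side (left bars, stacked by gene) beside mouse Myc (right bars) in each library, with their ratio above. The human MYC transgene has no level of its own and no bar. The MXD side reaches 49.96 and 44.4 TPM in tumor #1 and 107 and 96.5 in tumor #2, and without Mxd4 it lies between 37.0 and 50.1 in all 4 libraries.

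The parallel network around MLX, a MAX-like protein that pairs with the glucose-responsive factors MLXIP and MLXIPL and with MNT, MXD1 and MXD4, was represented by 2 of 3 genes. Mlx was lower in Tom+ cells of both tumors, with 18.6 and 13.0 TPM in tumor #1 and 21.0 and 14.4 in tumor #2 (mean -0.50, SE 0.17, p 0.0520 and adjusted p 0.936 from limma), and 15.2% of its 60-base stretches also occur in other transcripts. Mlxip had 17.4 and 17.3 TPM in tumor #1 and 60.8 and 62.8 in tumor #2, a log2 difference of 1.78. It met the criterion between tumors, as did 21.3% of all genes. Mlxipl fell under the filter.

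Of the 13 corepressor genes that MXD proteins and MNT recruit through SIN3, all were tested, and 1 had an unadjusted p below 0.05 between Tom+ and Tom- cells, as did 4.67% of all genes. This was Suds3, a subunit of the SIN3-HDAC complex, with 286 TPM in Tom- cells and 133 in Tom+ cells of tumor #1, against 260 and 115 in tumor #2. It was lower in Tom+ cells by -1.10 and -1.17 on the log2 scale (mean -1.14, SE 0.12, unadjusted p 0.00190 and adjusted p 0.936 from limma). The other 12 corepressors did not pass, and the median of the 13 was 0.01. Between the tumors, 7 of the 13 were lower and 3 higher in tumor #2 without overlap (23.7% and 44.8% of all genes), and 0 met the criterion (21.3%). Rbbp7, a histone-binding subunit, had 191 and 181 TPM in tumor #1 and 128 and 127 in tumor #2. Sap30 and Arid4b, further subunits of the complex, lay between 7.96 and 14.6 TPM.

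The 11 partners of MGA in its Polycomb-type complex were all tested, with 0 below an unadjusted p of 0.05 and a median Tom difference of 0.03. Max, itself a member of the network, is counted among the 11. E2f6, which binds DNA in this complex, lay between 2.79 and 4.99 TPM, and Rnf2 and Ring1, its ubiquitin ligases, between 17.2 and 29.4 and between 2.52 and 4.68. Between the tumors, 1 was higher and 3 were lower without overlap (44.8% and 23.7% of all genes), and 0 met the criterion (21.3%).

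All 18 cofactors of MYC were tested, with 0 below an unadjusted p of 0.05 between Tom+ and Tom- cells. Bptf, a chromatin remodeling subunit, had 18.1 and 25.6 TPM in tumor #1 and 40.9 and 48.1 in tumor #2 and was the 1 cofactor of 18 that met the criterion between tumors (21.3% of all genes), at 1.01. Ccnt1, the cyclin of the elongation kinase P-TEFb, came close to it (21.9, 21.9, 43.6 and 41.1 TPM, a difference of 0.92). Mycbp, a protein that binds MYC, was uneven, with 60.6 and 25.0 TPM in tumor #1 and 19.3 and 28.1 in tumor #2. Pim1, a kinase, had 8.48 to 14.7 TPM.

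Genes that set the stability of MYC protein numbered 20 tested of 21, with 0 below an unadjusted p of 0.05 and 0 past the criterion between tumors (21.3% of all genes). Aurka, a mitotic kinase that can stabilise MYC proteins, had 24.5 and 19.6 TPM in tumor #1 and 10.8 and 11.3 in tumor #2 (a difference of -0.93). Ppp2r5e, a regulatory subunit of phosphatase PP2A, was low in 1 library, with 43.5 and 60.3 TPM in tumor #1 and 53.2 and 17.5 in tumor #2. The ubiquitin ligase genes Mycbp2 and Fbxo28 had 10.8 to 26.8 and 4.68 to 6.51 TPM.

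Genes that MYC is known to activate were next, to set transcripts of its targets beside its own. All 38 were tested and 0 had an unadjusted p below 0.05 between Tom+ and Tom- cells, with 12 lower and 9 higher in both tumors and a median of 0.00. Between the tumors, 24 of the 38 were lower in tumor #2 without overlap and 6 higher, against 23.7% and 44.8% of all genes, and 32 of the 38 lay below the median gene. Their median was -0.33, against 0.20 for all genes, with trimmed-mean scaling it was -0.67 against -0.10, and with quantile normalization the gap was smaller, at -0.29 against -0.08. Of the 38, 2 met the criterion (21.3% of all genes). Nop16, a nucleolar protein gene, had 67.9 and 56.5 TPM in tumor #1 and 22.7 and 28.4 in tumor #2 (-1.25). Ccnd2, a D-type cyclin, went the other way, from 0.249 and 0.134 TPM to 17.7 and 7.43 (3.40). Tfap4, a transcription factor gene, had 12.5, 9.44, 9.32 and 7.17 TPM. In the same libraries the 8 proliferation genes had a median of -0.98, with 7 lower without overlap (23.7% of all genes) and 4 meeting the criterion as lower (5.1%). The gene that overlapped was Mki67, a common marker of dividing cells. It had 65.1 and 74.8 TPM in tumor #1 and 65.5 and 56.4 in tumor #2 (-0.20). Ccnb1, the mitotic cyclin, had 79.4 and 71.4 TPM in tumor #1 and 25.8 and 19.0 in tumor #2. Cdk1, its kinase, had 195 in both libraries of tumor #1 and 95.4 and 137 in tumor #2, and Birc5, a mitotic survival factor, 67.1 and 67.9 against 29.5 and 20.6. The part of proliferation in the target values was not tested.

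**Figure D5:**
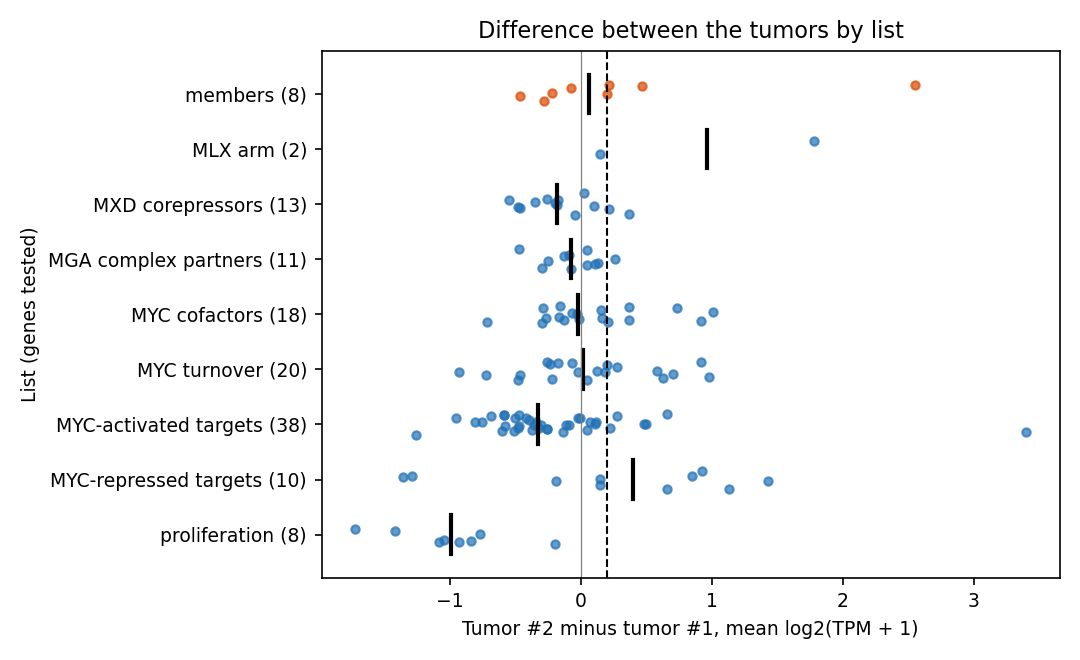
Log2 difference of tumor #2 minus tumor #1 for the tested genes of the members and 8 lists, each point a gene, with a bar at the list median and a dashed line at the median of all genes tested (0.20). The MYC-activated targets have a median of -0.33 and the proliferation genes of -0.98.

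Of 14 genes that MYC is known to repress, 10 were tested. Ndrg1, a stress-responsive gene, had 1.28 and 0.051 TPM in tumor #1 and 2.59 and 1.17 in tumor #2, and was the 1 of 10 with an unadjusted p below 0.05, against 4.67% of all genes (-0.92, SE 0.26, p 0.0350 and adjusted p 0.936 from limma). Between the tumors, 2 met the criterion as higher and 2 as lower in tumor #2 (16.2% and 5.1% of all genes), with a median of 0.40 against 0.20 for all genes. Btg2, an antiproliferative gene, had 18.5 and 20.1 TPM in tumor #1 and 58.7 and 48.9 in tumor #2. Gadd45a, a growth arrest gene, had 7.16 and 10.9 against 5.94 and 1.13.

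Of the genes listed on the chromosome around Myc, 4 were tested, 1 of them with an unadjusted p below 0.05 (4.67% of all genes). Asap1, a regulator of the cytoskeleton at chr15:64086857-64382919, was lower in Tom+ cells of both tumors, with 77.4 and 47.6 TPM in tumor #1 and 27.6 and 14.5 in tumor #2 (-0.79, SE 0.15, unadjusted p 0.0124 and adjusted p 0.936 from limma). Asap1 was also lower in tumor #2 (-1.55). Between the tumors, 2 of the 4 met the criterion as higher and 1 as lower in tumor #2 (16.2% and 5.1% of all genes). Trib1, a pseudokinase gene, had 2.64 and 3.26 TPM in tumor #1 and 7.38 and 10.3 in tumor #2 (1.30).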

How the data were processed

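Sorted B220+ IgM+ Tom- and Tom+ splenocytes of 2 mice gave 4 RNA-seq libraries. The authors trimmed reads, quantified them with Salmon 1.9 on GRCm38 transcripts and deposited 1 table of TPM per gene, and base calling with CASAVA 1.8 is named in the submitters' notes. TPM holds no read numbers, so the authors' count test (edgeR, paired) was not run. Symbols and coordinates came from GENCODE M21, which names 34652 of 34866 identifiers, and promoters from RefSeq.

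Genes that reached 1 TPM in 2 or more libraries were fitted as log2(TPM + 1) in limma 3.58.1 (R 4.3.3). The model held Tom status and tumor, and moderation used a variance trend with 2.21 prior and 1 residual degrees of freedom. P-values were adjusted by Benjamini-Hochberg over 11339 genes, with a threshold of 0.05. Both libraries of a tumor are from 1 mouse, which is why tumor is a block, and the deviations of same-tumor libraries correlated at r = 0.626 across genes. Tables and plots were made with Python 3.11.15, pandas 2.3.3 and matplotlib 3.10.9. The locus that drives Cre is not reported here.

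The members and gene lists were chosen with earlier results of these data known. Named genes were all 10 members and, per list, those with an unadjusted p below 0.05 and the 2 with the largest Tom and the 2 with the largest tumor difference. Shared sequence was counted as 60-base stretches of GENCODE transcripts on either strand. Alternatives were other pseudocounts, filters, scalings, gene sets in the total, priors, a fit without the block, each tumor left out and other definitions of the balance.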

Additional observations from a re-analysis of the deposited data

Results flagged for a closer look

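In each tumor there is 1 pair of libraries, so where the Tom+ minus Tom- difference had opposite signs in the 2 tumors, the difference between them was not tested. This held for 3 of the 8 members tested and for 16 of 28 other named genes, and 47.3% of all genes tested did the same. Values are the log2 difference in tumor #2 minus that in tumor #1. Among the members, Mnt had 0.77 (-0.73 in tumor #1 and 0.04 in tumor #2), Mxi1 had 0.49 (-0.03 and 0.45) and Mxd1 had 0.14 (-0.08 and 0.06).

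Among corepressors and the MLX arm, the value was 1.01 for Arid4b, -0.14 for Sap30 and 0.055 for Mlxip. Among partners of MGA it was 0.73 for E2f6, -0.55 for Rnf2 and -0.73 for Ring1. Among cofactors and stability genes it was 1.76 for Mycbp, -0.087 for Ccnt1, 0.37 for Aurka, -2.01 for Ppp2r5e and -0.52 for Mycbp2. Among targets it was 0.57 for Nop16, -2.24 for Gadd45a and -0.38 for Btg2, and among proliferation genes 0.52 for Cdk1 and -0.51 for Birc5.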

How the results depend on the processing

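The libraries give 1 residual degree of freedom, and their depth is unknown, so small differences of the members could not be resolved. No gene passed an adjusted p of 0.05 between Tom+ and Tom- cells with limma under any setting. The paper selected genes at that threshold with its paired test on counts, which was not run here. Without the tumor block, which ignores the pairing within a mouse, genes with an unadjusted p below 0.05 numbered 140 instead of 530. The members below that p numbered 0 in the reported fit. The number was 1 with a pseudocount of 0.1, a robust prior, a mean TPM of at least 5 or no filter (Mxd4 each time), 1 without the variance trend (Mxd3), and 2 with pseudogenes and mitochondrial genes left out (Mxd3 and Mxd4). Genes called different between tumors numbered 1440 with a mean TPM of at least 5, 5175 with a difference of at least 0.5, and 491 with limma's tumor term, against 2413. The balance of the MXD side to the MYC side differed between tumors by 0.88. With mean log2 values of each side, Mycn and Mycl at 0 included, it was 0.31. It was 1.20 with Mga left out and -0.0091 with Mxd4 left out, an alternative chosen after seeing the data. Between Tom+ and Tom- cells it was -0.43 with Mga left out and 0.085 with Mxd4 left out, against -0.19. The Tom difference of Mxd1 turned to 0.010 with immunoglobulin genes left out. With 1 of the 2 tumors left out, only the Tom difference of the other remains, so this is no further check. The 2 values were -0.077 and 0.060 for Mxd1, -0.035 and 0.45 for Mxi1 and -0.73 and 0.044 for Mnt. The causes were not tested.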
